A study of Mus musculus with 6 samples.

Results

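The integrated stress response and the unfolded protein response were followed through 45 genes of the mouse transcriptome. They were chosen by symbol as targets of the transcription factor Atf4, amino acid supply genes, and chaperones and sensors of the endoplasmic reticulum (ER). No measured value entered the rule, but earlier results of these data were known when the choice was made. All 45 were among the 23420 genes of the count table, and all 45 were among the 11608 genes that passed the filter on low counts. The question was whether their transcript levels differed between endothelial cells expressing an acetylation-mimetic Integrin-β1 and cells expressing the wildtype form.

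The cells were eEnd2, a mouse embryonic endothelial line, stably transfected with human Integrin-β1A that carries green fluorescent protein in its extracellular part. The first group, β1-WT-GFP, expressed the wildtype chimera, and the second, β1-K794Q-GFP, the same chimera in which the lysine that K794Q names, in the cytoplasmic tail, was exchanged for glutamine, a stand-in for acetyl-lysine. In both groups the chimera was driven by a fragment of the human β-actin promoter with a matrix attachment region of chicken lysozyme, and the mouse gene Itgb1 was left in place. Each group was made of transfected cells sorted for fluorescence and was represented by 3 untreated cultures named A, B and C, and total RNA depleted of ribosomal RNA was sequenced. The labels mention sorted populations of low and high fluorescence without naming the one each culture came from. Separate transfections or sorts for the cultures of a group are not described, so the p-values below measure the spread between cultures, which may be technical, and not between separate transfections.

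In the integrated stress response, kinases that sense ER stress, lack of amino acids, viral RNA or lack of heme phosphorylate the initiation factor eIF2, which lowers protein synthesis in general while the transcription factor Atf4 is translated more. Atf4 with its partners of the C/EBP family then raises genes for amino acid import, amino acid synthesis and tRNA charging, and also genes that end the response or lead to cell death. In the unfolded protein response the ER sensors Perk (Eif2ak3), Ire1 (Ern1) and Atf6 raise chaperones and the machinery that removes misfolded proteins from the ER.

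Promoters of some members hold the sequences by which these 2 branches are recognized, and windows of some of these genes are shown first. RefSeq promoter entries (GRCm38.p6, 250 bases before to 50 after the transcription start) were found for 42 of the 45 members, all but Atf6, Aldh1l2 and Slc7a5. The C/EBP-ATF composite element TGATGNAA, read on both strands, was present in 10 of these 42 members (23.8%) and in 4.51% of the 27025 genes with an entry. The ER stress element, CCAAT followed after 9 bases by CCACG, was present in 7 members (16.7%) and in 0.137% of all genes with an entry. Neither of these 2 elements was found in 25 of the 42 members, among them Cebpb and Atf4. The XBP1/ATF6 element TGACGTGG, whose last 5 letters are also the end of the ER stress element read on the other strand, was present in 0 members and in 0.714% of all genes with an entry. Members were chosen as Atf4 targets and ER chaperones, so these shares describe the choice. A match is a stretch of letters and not a measured binding site.

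Capitals mark the C/EBP-ATF element in the following upstream windows, each written 5′ to 3′ on the strand of its gene. Slc7a11 holds it in both directions, 11 bases apart.
Chac1 (chr2:119351029-119351076, plus strand): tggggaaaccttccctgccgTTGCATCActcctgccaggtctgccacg
Slc7a11 (chr3:50443633-50443699, minus strand): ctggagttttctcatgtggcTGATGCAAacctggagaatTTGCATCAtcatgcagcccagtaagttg
Atf3 (chr1:191183416-191183463, minus strand): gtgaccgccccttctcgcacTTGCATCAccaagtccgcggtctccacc
Nupr1 (chr7:126625553-126625600, minus strand): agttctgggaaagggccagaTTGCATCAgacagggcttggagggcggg
Asns (chr6:7693210-7693252, minus strand): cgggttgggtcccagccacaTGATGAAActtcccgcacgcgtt
Vldlr (chr19:27216800-27216847, plus strand): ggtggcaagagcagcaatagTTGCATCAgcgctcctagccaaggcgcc

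Capitals mark both parts of the ER stress element in the windows of 4 chaperone genes. Calr carries the element on the opposite strand of the gene.
Hspa5 (chr2:34772005-34772063, plus strand): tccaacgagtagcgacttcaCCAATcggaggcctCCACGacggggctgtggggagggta
Canx (chr11:50325780-50325838, minus strand): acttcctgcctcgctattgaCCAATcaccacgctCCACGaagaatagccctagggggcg
Calr (chr8:84847055-84847113, minus strand): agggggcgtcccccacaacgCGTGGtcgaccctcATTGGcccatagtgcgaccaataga
Dnajc3 (chr14:118937807-118937865, plus strand): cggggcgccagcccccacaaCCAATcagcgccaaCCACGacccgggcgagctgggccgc

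The libraries held 9589826 to 15287191 counts, so that 3 counts, taken as the floor, stood for 0.209 to 0.2999 normalized counts (CPM, counts scaled to a common library size). All levels below are CPM after TMM scaling, with the cultures in the order A, B and C. Endothelial markers summed to 7127 to 13758 CPM in the K794Q cultures and 8720 to 9755 CPM in the WT cultures, and epithelial markers to at most 1.18 CPM. Single endothelial markers did not all follow these sums. Cldn5 was at 17.5, 0 and 24.3 CPM in the K794Q cultures and 267, 252 and 4.74 CPM in the WT cultures. Erg was at 383, 519 and 216 CPM against 606, 596 and 228 CPM, low in both cultures C. Mesenchymal markers summed to 2.84 to 3.85 CPM in the K794Q cultures and 87.3 to 195 CPM in the WT cultures. Most of this was Prrx1, a transcription factor of mesenchyme, at 0.096, 0.099 and 0 CPM against 183, 194 and 56.5 CPM, with an adjusted p of 0.0023 in edgeR's quasi-likelihood test. Without Prrx1 the sums were 2.84 to 3.75 CPM and 0.787 to 30.7 CPM. Of the leukocyte markers, which summed to 31.9 to 104 CPM and 48.3 to 89.0 CPM, Cd68 made up most. The part of these markers in the results below was not tested, and in bulk RNA fewer cells with a transcript and less of it per cell cannot be told apart. The cultures of a group were far from equally alike. WT cultures A and B were at least 2-fold apart in 65 tested genes, while WT culture C was at least 2-fold apart from culture A in 2701 and from culture B in 2539. The K794Q cultures were at least 2-fold apart in 903 genes for A and C, 2001 for A and B, and 2562 for B and C.

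Between the groups, Chac1 was higher and Cebpb and Slc7a11 were lower in the K794Q cultures, and the other 42 members did not pass the thresholds, a fold change of at least 2 with an unadjusted p of at most 0.05. The 3 genes past both thresholds were 6.67% of the members, against 5.45% of all tested genes (633 of 11608), so the members passed about as often as genes in general. By direction, 1 member was higher, against 3.63% of all tested genes, and 2 were lower, against 1.83%. At an adjusted p of at most 0.05 (edgeR's quasi-likelihood test, Benjamini-Hochberg over all tested genes) there were 0 members and 33 genes in all (0.284%). At an unadjusted p of at most 0.05 there were 4 members (8.89%), the fourth being Eif2ak4, against 10.7% of all tested genes. The DESeq2 Wald test, run beside it, gave 2 members an adjusted p under 0.05, Chac1 (0.017) and Slc7a11 (0.046), which is 4.44% of the members against 4.11% of all tested genes.

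The lowest K794Q culture lay above the highest WT culture, or the reverse, in 4 members (8.89%), against 16.6% of all tested genes. These were Eif2ak4 and Ern1, higher in the K794Q cultures, and Cebpb and Slc7a11, lower. The median log2 fold change of the members was -0.13, beside -0.02 over all tested genes, with 14 members at a positive and 31 at a negative value. Over all tested genes 5617 values were positive and 5991 negative. The members come from the same cultures, so their signs are not independent of each other. The difference between the groups was larger than the spread between cultures of a group (the pooled SD on the log2 scale) for 12 of 45 members (26.7%), and for 37.6% of all tested genes.

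**Figure D1:**
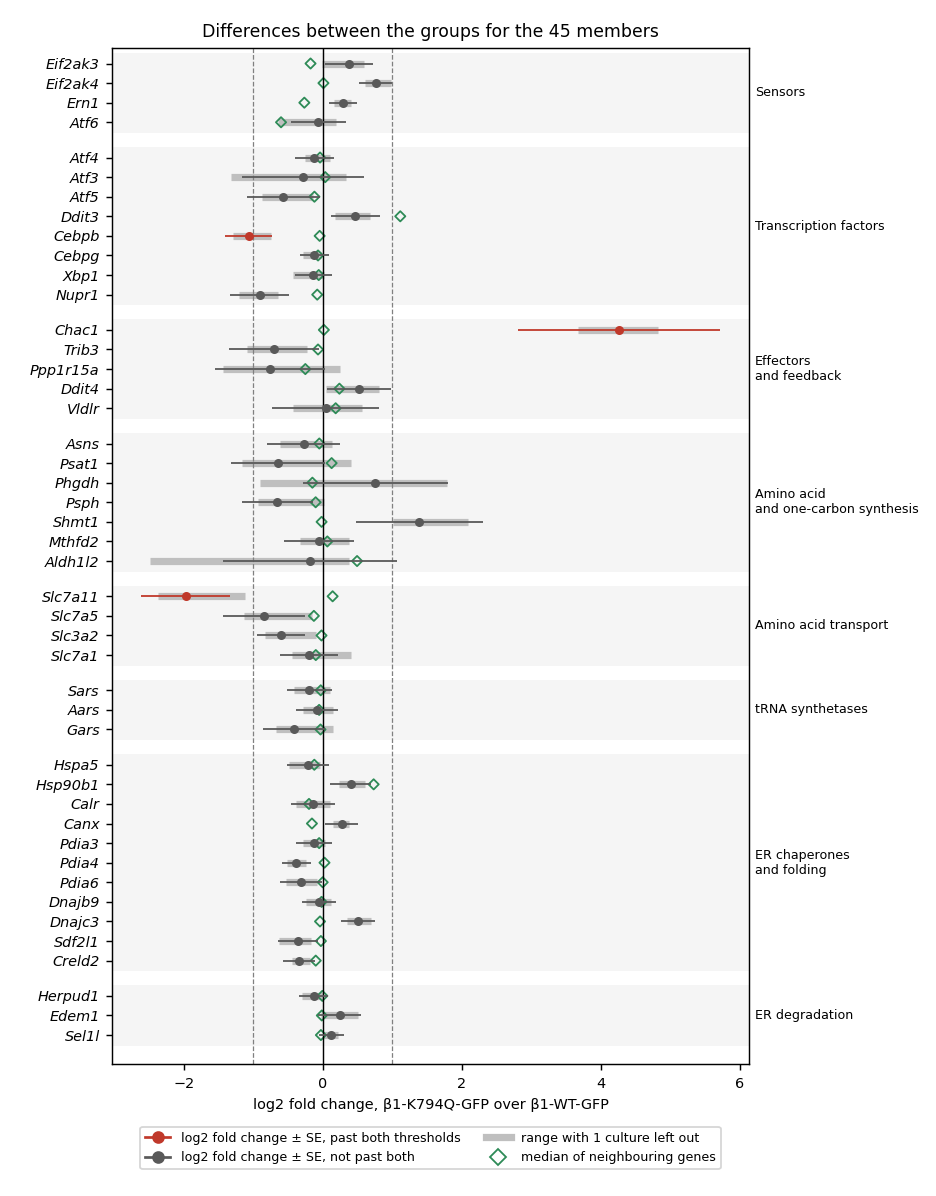
Log2 fold change (horizontal axis, β1-K794Q-GFP over β1-WT-GFP) of the 45 members, grouped by role. Points with bars are the estimate ± SE from 3 cultures per group, in red for the 3 genes past both thresholds (dashed lines, 2-fold), wide grey bars the range when 1 culture is left out, and green diamonds the running median over 25 tested genes in order along the chromosome. Chac1 at 4.26 and Slc7a11 at -1.97 stand farthest from 0, and the chaperone genes all lie between -0.38 and 0.50.

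Chac1 (chr2:119351229-119354381 in GRCm38), which encodes an enzyme that degrades glutathione and is a late target of Atf4, had the largest difference of the members. Its level was 62.7, 68.9 and 3.01 CPM in the K794Q cultures and 3.15, 3.90 and 0.070 CPM in the WT cultures. K794Q cultures A and B were high, while K794Q culture C lay at the level of WT cultures A and B, so the groups overlapped. The means were 44.9 ± 36.4 CPM (SD, n = 3) and 2.37 ± 2.03 CPM (SD, n = 3). The log2 fold change was 4.26 (SE 1.45), with an adjusted p of 0.355 in edgeR's quasi-likelihood test. WT culture C held 1 count of the gene. Over the summed counts, 1384 against 76, the ratio scaled for depth was 20.3, with a 95% interval from 16.1 to 25.9 that covers counting error only. Without K794Q culture A (log2 fold change 3.94), K794Q culture B (3.82) or WT culture A (4.53), Chac1 no longer passed the thresholds.

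Slc7a11 (chr3:49892526-50443614 in GRCm38) encodes the cystine importer xCT, which supplies cysteine for glutathione. Its level was 147, 104 and 48.8 CPM in the K794Q cultures and 190.2, 245 and 740.0 CPM in the WT cultures. The groups did not overlap, and the cultures named C lay at the 2 ends of the range, 15.2-fold apart. The means were 99.9 ± 49.2 CPM (SD, n = 3) and 391.8 ± 303 CPM (SD, n = 3), a log2 fold change of -1.97 (SE 0.64) with an adjusted p of 0.332 in edgeR's quasi-likelihood test. Without WT culture C it was -1.11 and not past the thresholds, and the same call was lost without K794Q culture B (-2.004) or K794Q culture C (-1.64).

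Cebpb (chr2:167688915-167690418 in GRCm38) encodes a transcription factor of the C/EBP family that Atf4 can pair with. It was at 4.91, 5.92 and 4.39 CPM in the K794Q cultures and 6.998, 10.2 and 14.7 CPM in the WT cultures. Every K794Q culture lay below every WT culture. The means were 5.07 ± 0.781 CPM and 10.6 ± 3.87 CPM over 3 cultures each (± SD). The log2 fold change was -1.07 (SE 0.34) with an adjusted p of 0.323 in edgeR's quasi-likelihood test. The call was lost without K794Q culture A (-1.05), K794Q culture C (-0.97) or WT culture C (-0.75).

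**Figure D2:**
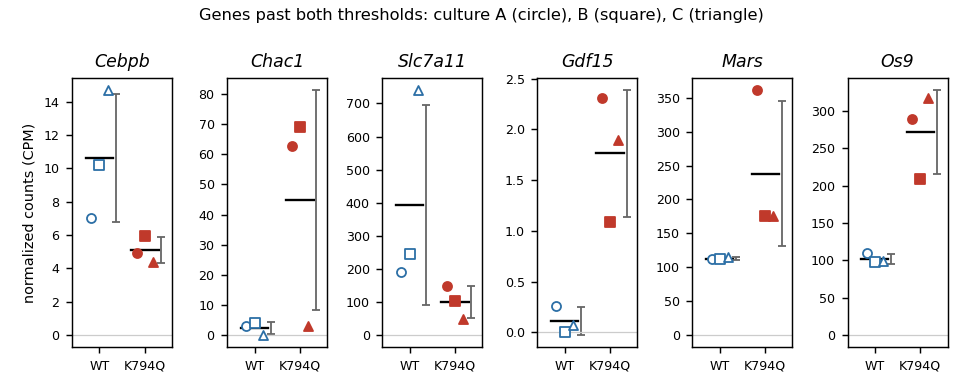
Normalized counts (CPM, vertical axes starting near 0 and scaled per gene) of the 3 members past both thresholds, Cebpb, Chac1 and Slc7a11, and of 3 further genes of the same pathways past them, Gdf15, Mars and Os9. Open blue symbols are β1-WT-GFP and filled red symbols β1-K794Q-GFP cultures, black lines group means and grey bars ± SD of 3 cultures. The Chac1 level of K794Q culture C, 3.01 CPM, lies among the WT cultures, and the Slc7a11 mean of the WT group rests largely on culture C at 740.0 CPM.

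Among the 4 sensors, 0 passed the thresholds. Eif2ak4 (Gcn2), the kinase that senses uncharged tRNA, was at 60.8, 68.6 and 49.6 CPM in the K794Q cultures and 32.9, 27.9 and 44.99 CPM in the WT cultures. The groups did not overlap, although WT culture C came close to K794Q culture C. The log2 fold change was 0.76 (SE 0.24), under the 2-fold threshold, with an adjusted p of 0.318 in edgeR's quasi-likelihood test. Ern1, the kinase and endonuclease that splices Xbp1 mRNA, also did not overlap, at 26.7, 19.0 and 22.4 CPM against 18.8, 18.4 and 18.4 CPM, but its log2 fold change was only 0.29 (SE 0.20). Eif2ak3 (Perk), the ER kinase that phosphorylates eIF2, was at 61.0, 106 and 48.3 CPM against 59.6, 66.7 and 40.3 CPM. Atf6, the sensor that is cut in the Golgi to release a transcription factor, was at 188, 444 and 166 CPM against 277, 312 and 243 CPM. For both, K794Q culture B was the highest of the 6. The other cultures overlapped for Eif2ak3, whereas K794Q cultures A and C lay below every WT culture for Atf6, whose log2 fold change was -0.06 (SE 0.40) and, without K794Q culture B, -0.64. Atf6 lies on chromosome 1 where the running median over 25 tested genes was -0.60 (log2, K794Q minus WT), and between -0.63 and -0.61 in each K794Q culture, so that K794Q culture B was high against its neighbours.

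Among the 8 transcription factors Cebpb was the 1 gene past the thresholds. Atf4, which carries the response, is controlled mainly in translation and was measured here as RNA. It was at 279, 287 and 158 CPM in the K794Q cultures and 241, 233 and 314 CPM in the WT cultures, with K794Q culture C lowest and WT culture C highest. The log2 fold change was -0.12 (SE 0.28). Atf3, a repressor and activator induced by many stresses, spread far more widely in the same order of cultures C. It was at 19.7, 48.0 and 3.27 CPM against 17.2, 20.5 and 48.4 CPM, a 14.8-fold range over the 6 cultures, and the log2 fold change was -0.28 (SE 0.88). Atf5, translated under stress like Atf4, was at 190.0, 203 and 47.4 CPM against 274, 188 and 192 CPM, so that K794Q culture C alone stood low.

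Nupr1, a small chromatin protein induced by stress, was at 90.2, 90.0 and 45.5 CPM in the K794Q cultures and 186, 164 and 72.9 CPM in the WT cultures. In both groups culture C was the lowest, and WT culture C lay among the K794Q cultures. The log2 fold change was -0.91 (SE 0.42), and without WT culture C it was -1.21 and past both thresholds. Ddit3 (Chop), the transcription factor linked to cell death under ER stress, was at 43.8, 26.5 and 25.2 CPM against 29.4, 25.7 and 14.1 CPM. Its range overlapped between the groups, and the log2 fold change was 0.47 (SE 0.35). Ddit3 lies on chromosome 10 (127290774 to 127296288 in GRCm38), where the running median over 25 tested genes was 1.11, and relative to these neighbours its log2 fold change was -0.62. It overlaps Mars by 68 bases on the opposite strand, and the strand setting of the counting is not given in the sources used here, so reads of this overlap cannot be assigned to 1 of the genes. Cebpg, a partner of Atf4, and Xbp1, the factor activated by splicing, had log2 fold changes of -0.12 (SE 0.21) and -0.13 (SE 0.26), each with overlapping groups and a range under 2-fold over the 6 cultures.

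Besides Chac1, the effector and feedback genes overlapped between the groups. Trib3, a pseudokinase that Atf4 induces and that holds Atf4 back, was at 48.3, 43.8 and 6.97 CPM in the K794Q cultures and 47.5, 48.3 and 65.5 CPM in the WT cultures. Ppp1r15a (Gadd34), which brings the phosphatase to eIF2 and so ends the response, was at 30.8, 55.8 and 9.72 CPM against 30.5, 23.7 and 109 CPM. In both genes K794Q culture C was the lowest of the 6 cultures and WT culture C the highest, and the log2 fold changes were -0.70 (SE 0.64) and -0.76 (SE 0.79). Ddit4 (Redd1), an inhibitor of mTORC1, and Vldlr, a lipoprotein receptor that Atf4 induces, did not share this order. Ddit4 was at 119, 333 and 182 CPM against 198, 159 and 85.7 CPM, highest in K794Q culture B and lowest in WT culture C. Ddit4 lies on chromosome 10, where the running median over neighbouring tested genes was raised in K794Q culture B alone. It was 0.85 there (log2, K794Q minus WT), against -0.04 and -0.11 in K794Q cultures A and C. With neighbouring genes in the offset, the log2 fold change of Ddit4 fell from 0.52 to 0.15. Vldlr was at 83.2, 8.29 and 99.7 CPM against 51.4, 55.5 and 78.8 CPM, with K794Q culture B far below the other 5 cultures.

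In amino acid and one-carbon synthesis 0 of 7 genes passed the thresholds, and the spread between cultures was among the largest of all roles. Asns, which makes asparagine, was at 120.2, 139 and 35.1 CPM in the K794Q cultures and 78.9, 109.6 and 168 CPM in the WT cultures. Mthfd2, a mitochondrial enzyme of folate metabolism, was at 72.1, 77.5 and 24.1 CPM against 41.03, 48.7 and 91.1 CPM. In both, K794Q culture C was the lowest and WT culture C the highest, and the groups overlapped in between, with log2 fold changes of -0.28 (SE 0.53) and -0.06 (SE 0.50).

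The serine pathway enzymes Phgdh, Psat1 and Psph, which act in this order, shared only part of their pattern over the cultures. Phgdh was at 21.4, 103 and 6.28 CPM against 12.0, 13.4 and 52.0 CPM, Psat1 at 77.2, 27.3 and 40.4 CPM against 32.6, 40.99 and 153 CPM, and Psph at 17.5, 16.1 and 8.08 CPM against 12.6, 15.2 and 37.6 CPM. WT culture C was the highest of the WT cultures in all 3, by 4.09-fold, 4.15-fold and 2.71-fold over the mean of A and B, whereas K794Q culture B was the highest culture for Phgdh and the lowest for Psat1. Aldh1l2, a mitochondrial enzyme of folate metabolism, had the second widest range of the members after Chac1, 77.5-fold. It was at 15.4, 107 and 1.38 CPM in the K794Q cultures and 26.0, 37.9 and 76.5 CPM in the WT cultures. Both extremes were K794Q cultures, and the log2 fold change was -0.19 (SE 1.25). Aldh1l2 lies on chromosome 10 where the running median over neighbouring tested genes was 0.49, and with these in the offset its log2 fold change was -0.64. Shmt1, the cytosolic enzyme that takes a one-carbon unit from serine, differed in its pattern, at 12.4, 0.888 and 12.0 CPM against 2.01, 2.00 and 5.57 CPM. K794Q culture B alone was below the WT cultures, the log2 fold change was 1.39 (SE 0.92), and without that culture it was 1.92 and past both thresholds.

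The amino acid transporters were all highest in WT culture C. Beside Slc7a11, Slc7a5 (Lat1), which imports large neutral amino acids, was at 72.7, 66.4 and 21.4 CPM in the K794Q cultures and 57.1, 63.1 and 167 CPM in the WT cultures. Slc3a2, the heavy chain that both xCT and Lat1 need at the cell surface, was at 118, 133 and 141 CPM against 131, 151 and 312 CPM, and did not share the low level of K794Q culture C. Slc7a1, an importer of cationic amino acids, was at 146, 113 and 88.9 CPM against 84.9, 92.2 and 223 CPM. The groups overlapped for these 3, with log2 fold changes of -0.84 (SE 0.59), -0.60 (SE 0.35) and -0.20 (SE 0.42).

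The tRNA synthetases Sars, Aars and Gars, which charge serine, alanine and glycine tRNA, were lowest in K794Q culture C without exception. Sars was at 106 CPM there and between 215 and 248 CPM in the other 5 cultures. Aars was at 168 CPM against 225 to 343 CPM, and Gars at 90.9 CPM against 123 to 324 CPM. In none of the 3 was the difference between the groups larger than its SE, with log2 fold changes of -0.19 (SE 0.32), -0.08 (SE 0.30) and -0.42 (SE 0.44).

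Of the ER chaperone and folding genes 0 of 11 passed the thresholds, and their log2 fold changes lay between -0.38 and 0.50. Hspa5 (BiP), the main Hsp70 chaperone of the ER lumen and the usual readout of the unfolded protein response, was at 506, 928 and 641 CPM in the K794Q cultures and 652, 883 and 874 CPM in the WT cultures. Hsp90b1 (Grp94), the Hsp90 of the ER, was at 606, 1080 and 974 CPM against 576, 773 and 666 CPM. The ranges overlapped for both, with log2 fold changes of -0.21 (SE 0.30) and 0.40 (SE 0.29). Hsp90b1 lies on chromosome 10 where the running median over 25 tested genes was 0.73, and relative to it the log2 fold change was -0.32.

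Calreticulin and calnexin, encoded by Calr and Canx, hold glycoproteins during folding. Calr was at 311, 646 and 523 CPM against 511, 642 and 479 CPM, and Canx at 678, 932 and 761 CPM against 548, 697 and 716 CPM. The log2 fold changes were -0.14 (SE 0.31) and 0.27 (SE 0.24). The disulfide isomerases Pdia3, Pdia4 and Pdia6 had log2 fold changes of -0.13, -0.38 and -0.32, and in all 3 the lowest of the 6 cultures was K794Q culture A. The co-chaperones of BiP were not alike in their fold changes. Dnajc3 (p58IPK), which also inhibits Perk, was at 180.4, 306 and 275 CPM against 154, 199 and 184 CPM, a log2 fold change of 0.50 (SE 0.24) that was larger than the spread within groups but under 2-fold. Dnajb9 (ERdj4) was at -0.05 (SE 0.25), and Sdf2l1 and Creld2, both small ER proteins induced by stress, at -0.35 (SE 0.29) and -0.34 (SE 0.23). The groups overlapped in all 11 genes.

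The 3 genes of ER-associated degradation also overlapped. Herpud1, which organizes the retrotranslocation complex, was at 57.2, 80.7 and 59.2 CPM in the K794Q cultures and 67.7, 84.7 and 63.4 CPM in the WT cultures. Edem1, which acts on misfolded glycoproteins, and Sel1l, the partner of the ubiquitin ligase Hrd1, had log2 fold changes of 0.24 (SE 0.31) and 0.12 (SE 0.18). Sel1l had the narrowest range of all members, 1.39-fold between the highest and the lowest culture.

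**Figure D3:**
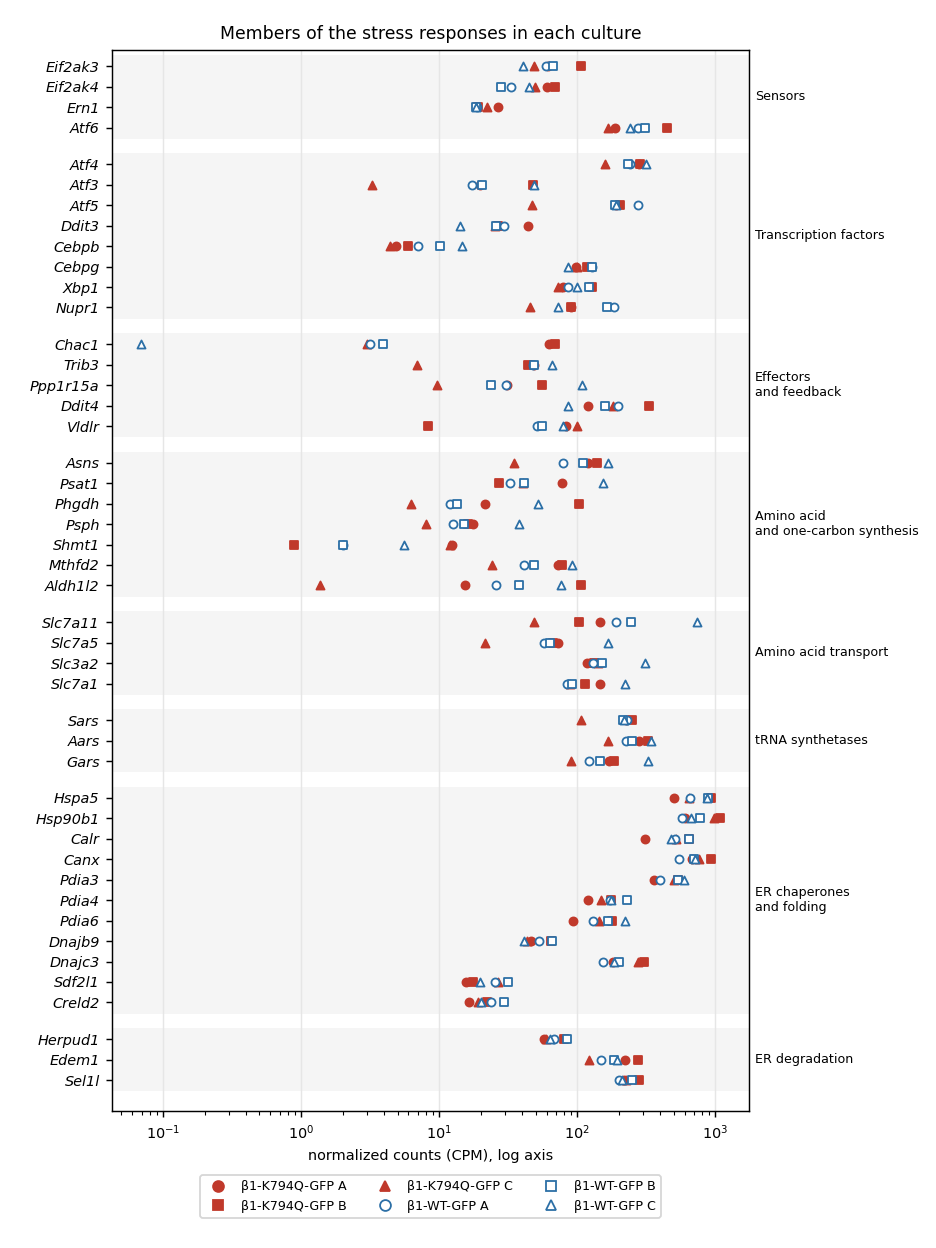
Normalized counts (CPM, log axis) of the 45 members in each of the 6 cultures, grouped by role. Filled red symbols are β1-K794Q-GFP and open blue symbols β1-WT-GFP cultures, with A as circles, B as squares and C as triangles. The red triangles lie at the low end and the blue triangles at the high end for most synthesis and transport genes, and the symbols of the chaperone genes lie close together.

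Many members differed widely between cultures. For 31 of the 45 members the highest and the lowest culture over both groups were at least 2-fold apart, and for 15 at least 4-fold. These counts include differences between the groups and were not made for all tested genes. K794Q culture C held the lowest level in 20 members (44.4%), beside 17.2% of all tested genes, and WT culture C held the highest in 17 (37.8%), beside 26.0%. The roles divided here. When effectors, synthesis, transport and tRNA synthetases were joined, a grouping made after the values were seen and not tested, K794Q culture C was the lowest in 12 of 19 genes and WT culture C the highest in 12 of 19. In the 14 genes of ER chaperones and degradation, K794Q culture C was the lowest in 1 and WT culture C the highest in 2. There K794Q culture A was the lowest in 8, and K794Q culture B the highest in 7, beside 11.3% and 21.9% of all tested genes.

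In size, the median difference of WT culture C from the mean of WT cultures A and B was 1.28 (log2) for synthesis and 1.40 for transport. It was 0.53 for the tRNA synthetases, 0.45 for the effectors, -0.14 for the transcription factors and -0.15 for the sensors. For the ER chaperones it was -0.00, for degradation -0.10 and for all tested genes 0.01. The median difference of K794Q culture C from the mean of K794Q cultures A and B was -2.04 for the effectors, -1.61 for synthesis, -0.93 for transport, -0.96 for the tRNA synthetases, -0.65 for the transcription factors, 0.15 for the ER chaperones and 0.01 for all tested genes. Within the WT group, 19 members (42.2%) were at least 2-fold apart between cultures A and C, beside 23.3% of all tested genes, and 0 between A and B, beside 0.560%. Between K794Q culture C and WT culture C it was 21 members (46.7%), beside 20.9%, and between K794Q culture A and WT culture A it was 4 (8.89%), beside 14.1%. Over all tested genes the pair farthest apart was another, K794Q culture B and WT culture C, with 25.4% of genes and 11 members (24.4%). What set the cultures named C apart was not tested. Their library sizes, 11071680 and 15287191 counts, were the second largest and the largest of their groups. Mesenchymal markers without Prrx1 summed to 30.7 CPM in WT culture C and 2.84 CPM in K794Q culture C.

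**Figure D4:**
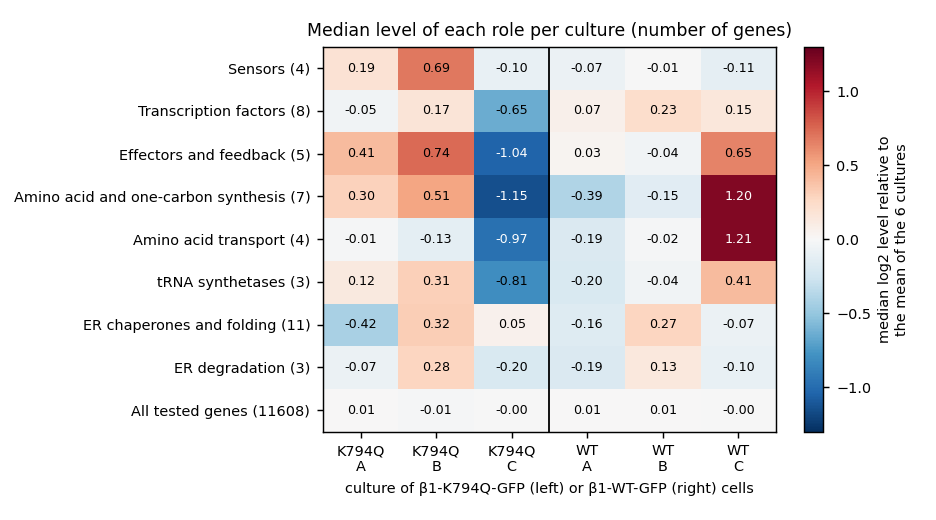
Median log2 level of the genes of each role in each culture, relative to the mean of the 6 cultures, written in the cells and shown from blue (low) to red (high), with the number of genes in parentheses. In K794Q culture C the synthesis genes are at -1.15 and in WT culture C at 1.20, whereas the chaperones are at 0.05 and -0.07 and all tested genes at -0.00 in both.

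The spread between cultures of a group holds the same differences between cultures, and it followed the division of roles only in part. The median SD within groups on the log2 scale was 1.21 for the effectors, 1.00 for synthesis and 0.76 for transport. It was 0.47 for the tRNA synthetases, 0.44 for the transcription factors and 0.39 for the sensors. For the ER chaperones it was 0.32 and for degradation 0.25, beside 0.35 for all tested genes. Genes of the promoter windows shown above fell on both sides of the division. The median SD was 0.89 for the 10 members with the C/EBP-ATF element, 0.35 for the 7 with the ER stress element and 0.47 for the 25 with neither. All 7 with the ER stress element are ER chaperones, so their values are a part of that role's and no separate observation. K794Q culture C was the lowest culture in 7 of the 10 genes with the C/EBP-ATF element in 0 of the 7 with the ER stress element, and in 10 of the 25 with neither. Within the first set Vldlr went the other way, with its highest level in K794Q culture C, and Herpud1 had an SD of only 0.25. These are descriptions of a few genes each and carry no test.

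**Figure D5:**
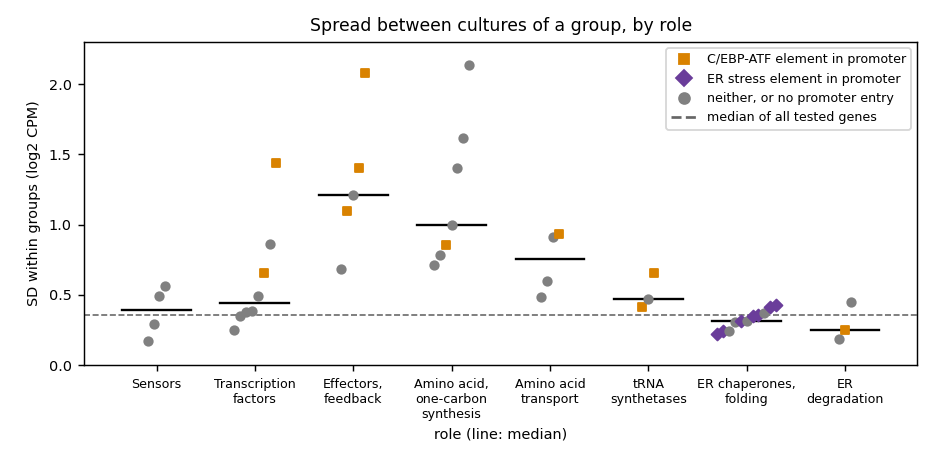
SD within groups (vertical axis, log2 CPM, pooled over both groups of 3 cultures) of each member, by role, with the median of the role as a black line and the median of all tested genes, 0.35, as a dashed line. Orange squares are genes whose promoter window holds the C/EBP-ATF element and purple diamonds those with the ER stress element. All purple diamonds lie among the chaperones at or under 0.43, and the orange squares range from 0.25 (Herpud1) to 2.08 (Chac1).

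Beyond the members, 125 other genes of the same pathways were read in the same way, of which 118 were tested. Past the thresholds were 3 (2.54%, beside 5.45% of all tested genes), all higher in the K794Q cultures, and none reached an adjusted p of 0.05 in edgeR's quasi-likelihood test. At an unadjusted p of at most 0.05 there were 10 (8.47%, beside 10.7% of all tested genes). Under DESeq2, 3 had an adjusted p under 0.05, Os9 (1.1e-06), Gdf15 (0.017) and Sesn2, a target of Atf4 that restrains mTORC1, which was named after its values were seen. Under edgeR's likelihood ratio test there were 2, Os9 and Gdf15. Gdf15, a secreted stress cytokine and target of Atf4 and Chop, was at 2.31, 1.09 and 1.89 CPM in the K794Q cultures and 0.262, 0.000 and 0.070 CPM in the WT cultures. No WT culture exceeded the floor of 3 counts. The log2 fold change was 3.85 (SE 0.87, adjusted p = 0.131 in edgeR's quasi-likelihood test), and over summed counts, 57 against 4, the ratio was 15.9 with a 95% interval from 5.87 to 60.2 for counting error. Gdf15 passed the thresholds in each of the 6 fits without 1 culture. The gap between the groups held in K794Q culture C, where the member Chac1 was low.

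Os9, a lectin of ER-associated degradation, and Mars, the methionine tRNA synthetase, were the other 2, and both lie near Ddit3 on chromosome 10, Os9 at 127095650 to 127121131 and Mars at 127296221 to 127311786 (GRCm38). Os9 was at 289, 209 and 317 CPM in the K794Q cultures and 109, 97.3 and 99.2 CPM in the WT cultures, a log2 fold change of 1.41 (SE 0.20, adjusted p = 0.076 in edgeR's quasi-likelihood test). Mars was at 361, 176 and 176 CPM against 111, 112 and 115 CPM, a log2 fold change of 1.08 (SE 0.31, adjusted p = 0.273 in the same test). Neither gene overlapped between the groups. The running median over 25 tested genes was 1.00 around Os9 and 1.15 around Mars, and with it in the offset their log2 fold changes were 0.40 and -0.10, neither past the thresholds. Without K794Q culture A, Mars was at 0.64 and not past them.

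The order of the cultures C was seen in some of the other lists and not in others, beside 26.0% of all tested genes highest in WT culture C and 17.2% lowest in K794Q culture C. It was present in the 16 further tRNA synthetases. WT culture C lay above WT cultures A and B in all 16 and was the highest of the 6 cultures in 13, and K794Q culture C was the lowest of the 6 in 11. Mars was past the thresholds, and the median log2 fold change of the 16 was -0.25. Of 10 further synthesis genes tested, 0 passed, with WT culture C highest in 7, and of 10 further transporters 0 passed, with K794Q culture C lowest in 6 and WT culture C highest in 5. Among 11 further Atf4 targets tested WT culture C was the highest in 3 and the lowest in 3, K794Q culture C was the lowest in 5, and Gdf15 was past the thresholds. Among 16 further ER folding genes 0 passed, with a median of -0.14 and WT culture C highest in 10, whereas it was the highest in 2 of the 11 member chaperones. Of the further genes of the integrated stress response machinery (eIF2 kinases, eIF2 and eIF2B subunits, Ppp1r15b, Gcn1l1 and Impact) 0 of 13 passed (median -0.16), of the further ER sensors 0 of 5 (median -0.10), of the cytosolic heat shock genes 0 of 9 (median -0.11) and of the mitochondrial stress genes 0 of 8 (median -0.24). WT culture C was the highest in 7 of 13 machinery genes and 0 of 5 sensors. It was the highest in 4 of 9 heat shock and 5 of 8 mitochondrial genes. K794Q culture C was the lowest in 5, 3, 5 and 4 of these. Of 20 further genes of ER degradation and translocation Os9 passed (median -0.02). WT culture C was the highest in 7 of them and K794Q culture C the lowest in 6. Over all 118 genes, WT culture C was the highest in 61 and K794Q culture C the lowest in 53. Of the 118, 18 (15.3%) did not overlap between the groups, 5 higher and 13 lower in the K794Q cultures, against 16.6% of all tested genes.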

How the data were processed

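RNA sequencing of 6 eEnd2 cultures, 3 per group, was analysed. The authors deposited raw counts per gene, and the submitters' processing notes name bcl2fastq 2.20.0, STAR 2.7.4a, HTSeq 0.9.1 and edgeR 3.38.4 with the build mm10 (GRCm38). The annotation and strand setting are not given in the sources used here. The table held 0 further columns of samples. Counts were filtered with filterByExpr, scaled by TMM and tested by edgeR 4.0.16 (R 4.3.3, glmQLFit and glmQLFTest, two-sided, 11608 genes, common dispersion 0.186), with the fold and p thresholds of the study's methods and Benjamini-Hochberg adjustment over all tested genes. SDs within groups and differences between cultures used log2(CPM + 0.5). Gene positions came from GENCODE through 21777 symbols matched directly and 1265 through a synonym. Members and lists were chosen with earlier results of these data known. Named were all members and, of the other pathway genes, those past both thresholds. The fit was also run on simulated counts with a lower dispersion and no outlying culture, which checks the code and not its behaviour on these data. DESeq2 1.42.0 and the other alternatives are in the closing section. Sequences are RefSeq's.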

Additional observations from a re-analysis of the deposited data

How the results depend on the processing

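Of 45 members, 3 passed both thresholds without a filter on low counts and under RLE normalization, the likelihood ratio test, DESeq2, the older quasi-likelihood method of the edgeR version the study names, and the offset for neighbouring genes. With at least 10 counts required in every culture, 43 members were tested and 2 passed, since Chac1 has 1 count in WT culture C. Leaving out 1 culture gave 1 to 3 members. All tested genes past both thresholds numbered 633, then 1009 without a filter, where 15974 genes were tested, 430 with at least 10 counts, 598 with the block and 529 to 1030 with 1 culture left out, the highest values being 954 without K794Q culture B and 1030 without WT culture C. At an adjusted p of at most 0.05 there were 33 genes, 318 by the likelihood ratio test, 477 by DESeq2 and 2 with the block.

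With the culture letter as a replicate block, 2 members passed, Slc7a11 did not (log2 fold change -1.77, adjusted p = 0.596 in edgeR's quasi-likelihood test), Mars did not (0.99), Vldlr turned to -0.46, and no other member changed its call. The letters share only a name: same-letter correlations of deviations were 0.109, 0.055 and 0.102, and K794Q culture A correlated best with WT culture B (0.113). With neighbouring genes in the offset, Atf6 turned to 0.54, Ddit3 to -0.62, Vldlr to -0.40, Aars to 0.0038, Hsp90b1 to -0.32, Calr to 0.061 and Mars to -0.10. The cause was not tested. Depth limits the folds of Gdf15, at or under 3 counts in every WT culture, and Chac1, at 1 count in WT culture C.

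With 1 culture left out, the log2 fold changes of 22 members took both signs, with the ranges Eif2ak3 -0.014 to 0.59, Atf6 -0.64 to 0.19, Atf4 -0.26 to 0.11, Atf3 -1.32 to 0.33, Xbp1 -0.42 to 0.017, Ppp1r15a -1.43 to 0.25, Vldlr -0.44 to 0.56, Asns -0.62 to 0.13, Psat1 -1.16 to 0.41, Phgdh -0.91 to 1.78, Psph -0.93 to 0.010, Mthfd2 -0.33 to 0.38, Aldh1l2 -2.48 to 0.38, Slc7a1 -0.44 to 0.40, Sars -0.41 to 0.10, Aars -0.28 to 0.15, Gars -0.67 to 0.15, Calr -0.38 to 0.10, Pdia3 -0.28 to 0.027, Dnajb9 -0.24 to 0.12, Herpud1 -0.30 to 0.00063 and Edem1 -0.022 to 0.51.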
